A study of Mus musculus with 12 samples.

Results

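The genes examined here encode corepressors of nuclear receptors and the histone deacetylases (HDACs) that work with them. They are *Ncor1*, *Tbl1xr1* and *Hdac3* of the NCoR complex, the class IIa deacetylases *Hdac4*, *Hdac5* and *Hdac9*, the C-terminal binding proteins *Ctbp1* and *Ctbp2*, and the scaffold *Sin3a*. The 9 genes were chosen by name, and their regions were those that overlapped the gene body extended by 5 kb on each side (GENCODE M21, GRCm38). This gave 115 of the 53754 H3K27ac regions listed for control cardiomyocytes (CMs) and 91 of the 45521 regions listed for RIP140-null CMs. All 9 genes had regions in both lists.

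RIP140, the product of *Nrip1*, is a ligand-dependent corepressor that binds nuclear receptors and recruits CtBP proteins and HDACs to them. NCoR1 is a separate corepressor of nuclear receptors. It holds HDAC3 and the TBL1-type proteins in 1 complex, and HDAC3 gives that complex its deacetylase activity. Class IIa HDACs bind MEF2 transcription factors, and in the heart they are known for restraining MEF2-dependent growth genes. SIN3A is the scaffold of a further HDAC complex. H3K27ac, acetylation of histone H3 at lysine 27, is removed by HDACs and marks active promoters and enhancers.

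H3K27ac was profiled by CUT&RUN, in which an antibody tethers a nuclease to chromatin and the released DNA is sequenced. CMs came from male mice aged 10 to 12 weeks, with 200000 CMs per experiment. RIP140-null CMs came from csNrip1-/- mice (label Nrip1 f/f Cre+), in which Cre under the Nkx2.5 promoter deletes floxed *Nrip1*. Control CMs came from littermates with the same floxed alleles and no Cre (label Nrip1 f/f Cre-), so the genotypes differ in Cre as well as in *Nrip1*, and the 2 cannot be told apart. Nkx2.5 is active from the early embryonic heart onward, so the deletion precedes adulthood. Each genotype had 3 H3K27ac and 3 IgG experiments, and the authors kept the regions enriched over IgG in at least 2 of 3 replicates as 1 list per genotype. The lists hold positions and no signal, so each value below is 1 value per genotype, without an error between replicates and without a test. The depth behind each region is unknown.

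The lists were checked at the targeted gene and at marker genes. Over the last exon of *Nrip1*, the control list covered 2904 bp and the KO list 0 bp. All 8 cardiomyocyte markers had regions, with a summed covered length of 104942 bp in control and 112154 bp in RIP140-null CMs. All 4 endothelial markers (*Pecam1*, *Cdh5*, *Kdr* and *Tie1*) also had regions, with 58004 and 66133 bp. *Pecam1* and *Kdr* had more covered length in RIP140-null CMs, while *Cdh5* (5079 and 1743 bp) and *Tie1* (2498 and 1645 bp) had over 1.5-fold less, and the median log2 ratio was -0.14. Regions that overlapped none of the other list numbered 9 in the control list and 1 in the KO list. The 9 were 4 of 5 control regions at *Cdh5*, 4 of 10 at *Kdr*, 1 of 2 at *Tie1* and 0 of 8 at *Pecam1*. Over all control regions this share was 29.5%. The 1 was among 2 KO regions at *Cdh5*, with 0 of 8 at *Pecam1*, 0 of 4 at *Kdr* and 0 of 1 at *Tie1*, against 21.5% of all KO regions. Of the fibroblast markers, *Tcf21* and *Dcn* had none, and *Col1a1* and *Pdgfra* together had 1560 and 834 bp. Of the macrophage markers, *Ptprc*, *Csf1r* and *Adgre1* had none, and *Cd68* had 1173 and 4128 bp. CMs were separated from other heart cells by slow centrifugation and were not sorted. The part of other cell types in the values below was not tested.

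The genes of this family differed first in how much of them was acetylated, and the order was alike in both genotypes except that *Tbl1xr1* and *Ctbp2*, and *Ctbp1* and *Sin3a*, changed places. The class IIa genes *Hdac9* and *Hdac4* carried the most, with 129.1 and 95.2 kb covered in control CMs and 133.2 and 109.3 kb in RIP140-null CMs. Among the 14443 protein-coding genes with any region, *Hdac9* was 37th by covered length in control and 33rd in RIP140-null CMs, and *Hdac4* was 109th and 71st. *Tbl1xr1* had 57.6 and 51.9 kb, and *Ctbp2* had 50.7 and 52.4 kb. *Hdac5* had 20600 and 22040 bp, which was 45% and 48.2% of its window, the highest share of any of the 9 genes. *Ncor1* had 11.4 and 13.4 kb and *Ctbp1* had 9.0 and 8.7 kb. *Sin3a* had 5.3 and 9.6 kb, and *Hdac3*, the lowest in both genotypes, had 3.4 and 6.8 kb. The median gene had 3840 bp in control and 4194 bp in RIP140-null CMs, so only *Hdac3* in control CMs lay below the median. Long genes can hold more regions, and *Hdac9* spans 869516 bp against 19173 bp for *Hdac3*.

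**Figure D1:**
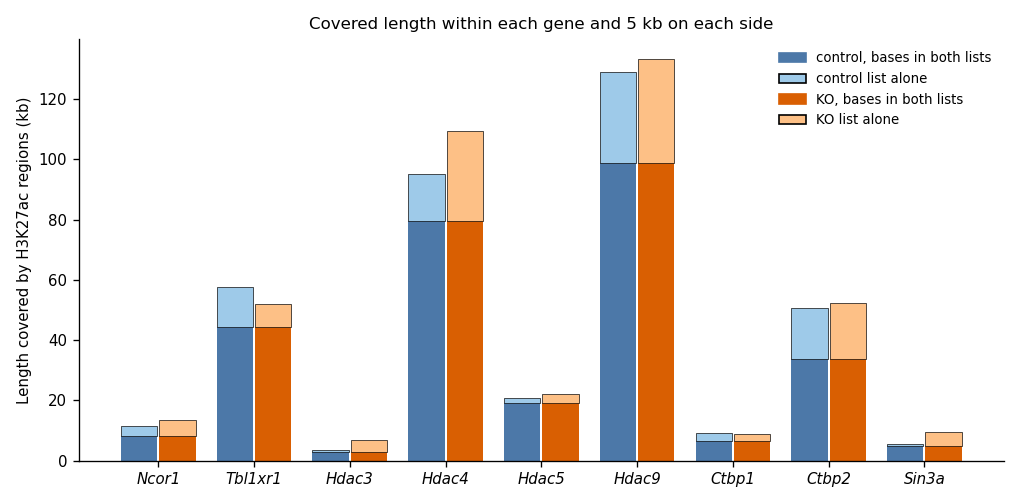
Length covered by H3K27ac regions (kb, vertical axis from 0) within each gene extended by 5 kb on each side, in control (blue) and RIP140-null (KO, orange) CMs. The dark part of each bar is covered in both lists and the pale part in 1 list alone, with 1 value per genotype and no error bar. *Hdac9* and *Hdac4* hold the most, and the KO bars of *Hdac3* and *Sin3a* are 2.02 and 1.8 times the control bars.

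Promoter sequences are shown for 4 genes on which the results below turn. They are the 250 bases upstream of a start site of the RefSeq table (GRCm38.p6), which held 8 of the 9 genes. They are printed from 5′ to 3′ on the strand of the gene, and capitals mark a match to the MEF2 consensus.
Hdac4 promoter, chr1:92180342-92180591, minus strand: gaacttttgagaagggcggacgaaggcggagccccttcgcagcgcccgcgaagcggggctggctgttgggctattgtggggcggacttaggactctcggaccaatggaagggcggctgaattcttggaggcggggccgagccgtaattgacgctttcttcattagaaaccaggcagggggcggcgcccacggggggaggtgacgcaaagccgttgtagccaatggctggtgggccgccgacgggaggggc
Hdac5 promoter, chr11:102230173-102230422, minus strand: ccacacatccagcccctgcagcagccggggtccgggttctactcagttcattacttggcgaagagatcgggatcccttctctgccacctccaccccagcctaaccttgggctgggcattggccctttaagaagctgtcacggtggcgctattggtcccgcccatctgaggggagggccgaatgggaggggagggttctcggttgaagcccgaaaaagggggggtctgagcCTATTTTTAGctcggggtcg
Hdac9 internal promoter, chr12:34528890-34529139, minus strand: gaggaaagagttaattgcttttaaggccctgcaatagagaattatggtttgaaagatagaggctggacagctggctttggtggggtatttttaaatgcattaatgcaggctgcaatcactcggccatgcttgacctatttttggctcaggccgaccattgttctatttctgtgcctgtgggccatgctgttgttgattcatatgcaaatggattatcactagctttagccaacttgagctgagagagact
Sin3a second promoter, chr9:57076126-57076375, plus strand: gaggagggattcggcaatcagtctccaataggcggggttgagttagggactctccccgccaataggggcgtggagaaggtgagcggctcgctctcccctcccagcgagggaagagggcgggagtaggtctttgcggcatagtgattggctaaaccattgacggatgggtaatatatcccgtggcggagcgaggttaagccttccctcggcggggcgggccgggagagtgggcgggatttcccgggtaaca
The first, second and last of these are rich in GC (65.2%, 60.8% and 61.6%) and hold 23, 12 and 19 CpG sites, against a median of 6 over the 32851 promoters of the table. The *Hdac9* promoter has 43.6% GC and 2 CpG sites, a count that 81.2% of promoters reach. Regions of both lists covered all 250 bases at *Hdac4*, *Hdac5* and *Hdac9*. At *Sin3a*, the KO list covered all 250 bases of the second promoter and the control list covered 0.

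Over the 9 genes together, covered length was 382.2 kb in control and 407.4 kb in RIP140-null CMs, a log2 ratio of 0.09. Of this, 297.8 kb was common to both lists, which is 77.9% of the control and 73.1% of the KO length. In a bulk preparation, a smaller share of cells carrying the mark and a weaker mark per cell cannot be told apart. By gene, covered lengths were compared as log2(KO/control), with a median of 0.10, against 0.08 over all protein-coding genes covered in both lists. This log2 ratio lay above 0 for 7 of the 9 genes and below 0 for *Tbl1xr1* and *Ctbp1*. It was over 1.5-fold higher for *Hdac3* and *Sin3a* (2 of 9, against 16.3% of all such genes) and over 1.5-fold lower for 0 of 9 (against 8.6%).

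A region was called KO-only or control-only if it overlapped no region of the other list. KO-only regions numbered 13 of 91 (14.3%, 95% Wilson interval 8.54% to 22.9%), against 21.5% of all KO regions. Control-only regions numbered 29 of 115 (25.2%, interval 18.2% to 33.9%), against 29.5% of all control regions. The intervals cover counting error only, and both include the share over all regions. KO-only regions therefore made up 31% of the 42 genotype-only regions (interval 19.1% to 46%), against 38.2% in the lists as a whole. By gene, *Hdac4*, *Hdac9*, *Ctbp2* and *Sin3a* (4 of 9) had a KO-only region, against 35.2% of protein-coding genes with any region. *Ncor1*, *Tbl1xr1*, *Hdac4*, *Hdac9* and *Ctbp2* (5 of 9) had a control-only region, against 39.2%. *Hdac3*, *Hdac5* and *Ctbp1* had neither.

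The genotype-only regions were narrower than the shared ones, as they are over the whole lists. Their median width was 1022 bp for KO-only and 1075 bp for control-only regions, while the shared regions at these genes had medians of 3084.5 bp in the KO list and 2883.5 bp in the control list. Over the whole lists these medians were 1279, 1045, 2694 and 2404 bp. By the position of its center, 12 of the 13 KO-only regions were intronic, as were 28 of the 29 control-only ones, and 0 of either lay at a promoter. Most regions at these long genes are intronic whatever their status, 74 of 91 in the KO and 96 of 115 in the control list, against 54.1% and 55.1% of all regions. Promoters held few regions at these genes, 9 of 91 in the KO and 13 of 115 in the control list, against 15.5% and 13.6% of all regions. All 13 KO-only regions, and 25 of the control-only ones, were at least 5 kb from any coding start of their gene. Shared regions were not counted by this distance, so no contrast with them is drawn. The name of each region ends in a number, read here as the number of peak calls merged into it, of which 2 is the lowest possible. This number was 2 in all 13 KO-only and in 27 of 29 control-only regions, whereas 51.3% of shared KO and 47.7% of shared control regions at these genes had 3 or more. Over the whole lists, 12.2% of the KO-only regions and 5.72% of the control-only regions had 3 or more. *Hdac9* alone held 15 of the control-only regions and 8 of the KO-only ones, and 14 and 5 lay at the other genes. It also held the most regions, 38 of the 115 in the control and 28 of the 91 in the KO list.

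At 64 loci, regions of both lists overlapped. The KO and control lengths of these loci had a median log2 ratio of 0.15 (quartiles -0.30 and 0.63), against 0.08 over all 32647 loci (quartiles -0.22 and 0.41). In RIP140-null CMs, 17 of 64 loci (26.6%) were over 1.5-fold wider, against 17.3% of all loci, and 11 of 64 (17.2%) were over 1.5-fold narrower, against 10.3%. The other 36 loci lay within 1.5-fold. *Ctbp2* alone held 6 of the 11 narrower loci, and *Hdac4* held 5 of the 17 wider ones. Both shares lay above those over all loci, but they rest on few genes, and the difference was not tested. Some regions of each list spanned a gap in the other. Of the 91 KO regions, 18 (19.8%) overlapped 2 or more control regions, against 9.65% of all KO regions. Of the 115 control regions, 13 (11.3%) overlapped 2 or more KO regions, against 5.16% of all control regions. Regions at these genes are wider than those of the lists as a whole (median 2124 against 1846 bp in control and 2727 against 2291 bp in RIP140-null CMs), and the part of width in these shares was not tested.

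**Figure D2:**
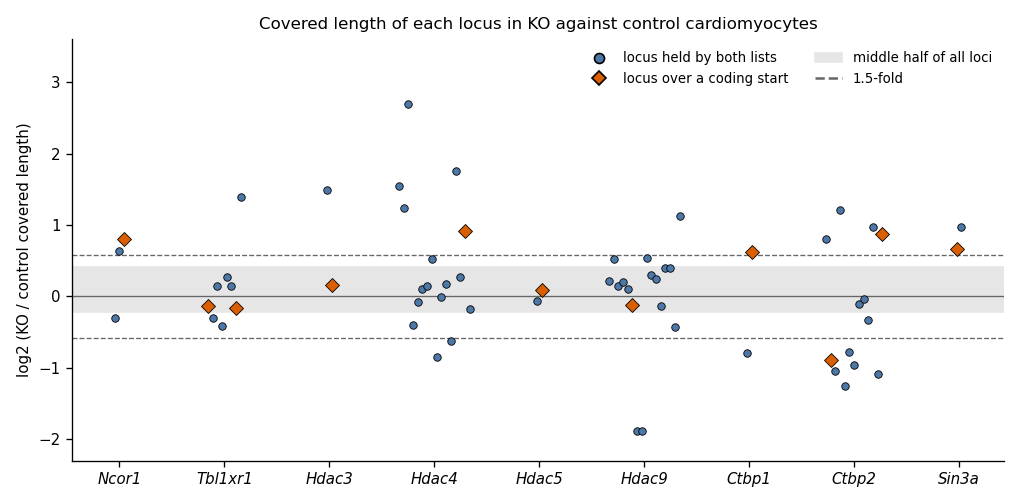
Covered length in KO relative to control CMs (log2, vertical axis) for each of the 64 loci held by both lists, by gene in order of position. Diamonds are loci over a coding start, circles are other loci, dashed lines mark 1.5-fold and the grey band is the middle 50% of all 32647 loci. Loci at the 3′ end of *Hdac4* reach 2.69, and 2 loci of *Hdac9* lie at -1.88.

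The loci over coding starts were then described, a choice made after the values were seen. The 9 genes have 64 annotated coding start positions, of which 39 lay in regions of both lists, 22 in neither, 3 in the KO list alone and 0 in the control list alone. Of the 54355 coding start positions of all protein-coding genes, 6.14% lay in the KO list alone and 2.63% in the control list alone, so more starts lay in the KO list alone across the series as well. The 39 lay in 11 loci. Of these, 5 were over 1.5-fold wider in RIP140-null CMs, against 14% of the 9776 loci over any coding start, and 1 was over 1.5-fold narrower, against 4.89%. The wider loci were at *Hdac4* (5600 and 10581 bp in control and RIP140-null CMs), *Ctbp2* (7146 and 13164 bp), *Ncor1* (3581 and 6299 bp), *Sin3a* (3941 and 6236 bp) and *Ctbp1* (3706 and 5702 bp). Those of *Tbl1xr1*, *Hdac3*, *Hdac5* and *Hdac9* lay within 1.5-fold. A second choice used only the start of the most coding transcripts of each gene, with ties given to the most upstream start. The tie rule set the start at *Tbl1xr1*, *Hdac4*, *Ctbp2* and *Sin3a*. *Ncor1* was excluded because its chosen start was internal and outside any region. By this choice 4 of 8 loci were wider, against 13.8% of 8382 loci, and 0 of 8 were narrower, against 4.61%.

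*Ncor1* (ENSMUSG00000018501, chromosome 11, 62316426 to 62458541, minus strand) encodes the receptor-binding subunit of the NCoR complex. Acetylation lay at its 5′ end in both genotypes, and most of the gene body held none. The locus over the start measured 3581 bp in control and 6299 bp in RIP140-null CMs, a log2 ratio of 0.81, and it extended farther into intron 1 in RIP140-null CMs. Also in intron 1, control regions of 2000 and 2012 bp were overlapped by 1 KO region of 6232 bp. The KO list had 3 regions and the control list 7, of which 3 were control-only. The control-only regions measured 641 bp in intron 1, 1240 bp in intron 3 and 808 bp in intron 23, and the first of them lay 817 bp from the nearest KO region. Total covered length was 11356 and 13401 bp, so fewer KO regions covered more of the gene. The start region also overlaps *Pigl*, and the lists cannot divide it between the genes.

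*Tbl1xr1* (ENSMUSG00000027630, chromosome 3, 22076652 to 22216594, plus strand), which encodes a corepressor exchange factor of the same complex, was one of the broadly acetylated genes. Regions covered 38.4% of its window in control and 34.6% in RIP140-null CMs, in a stretch of 84.8 kb from just upstream of the start into intron 3. Its locus over the start measured 8212 and 7468 bp. Of its 8 loci, 7 lay within 1.5-fold, and the median log2 ratio was 0.00. The exception was a locus in intron 4, with 1018 bp in control and 2675 bp in RIP140-null CMs. Of its 14 control regions, 4 were control-only, from 638 to 2488 bp wide and in introns 1 to 3, against 29.5% of all control regions. Of its 11 KO regions, 0 were KO-only, against 21.5% of all KO regions. Its covered length was 57626 and 51862 bp, a log2 ratio of -0.15.

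*Hdac3* (ENSMUSG00000024454, chromosome 18, 37935844 to 37955016, minus strand), the catalytic subunit, had 1 region at each end in both genotypes. At its start, where the regions of both lists also overlap *Rell2*, the control region measured 1491 bp and the KO region 1669 bp. At its 3′ end, the KO region of 9553 bp overlapped the control region of 1885 bp and a further control region of 1526 bp outside the window, so that this locus measured 3411 and 9553 bp (2.8-fold). The log2 ratio of covered length within the window was 1.01 (3376 and 6820 bp). Within the gene body alone it was -0.37. The additional length thus lay beyond the 3′ end, where the regions overlap *Diaph1*, and the KO region extends out of the window. The value of *Hdac3* therefore describes its neighborhood and not its own start.

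**Figure D3:**
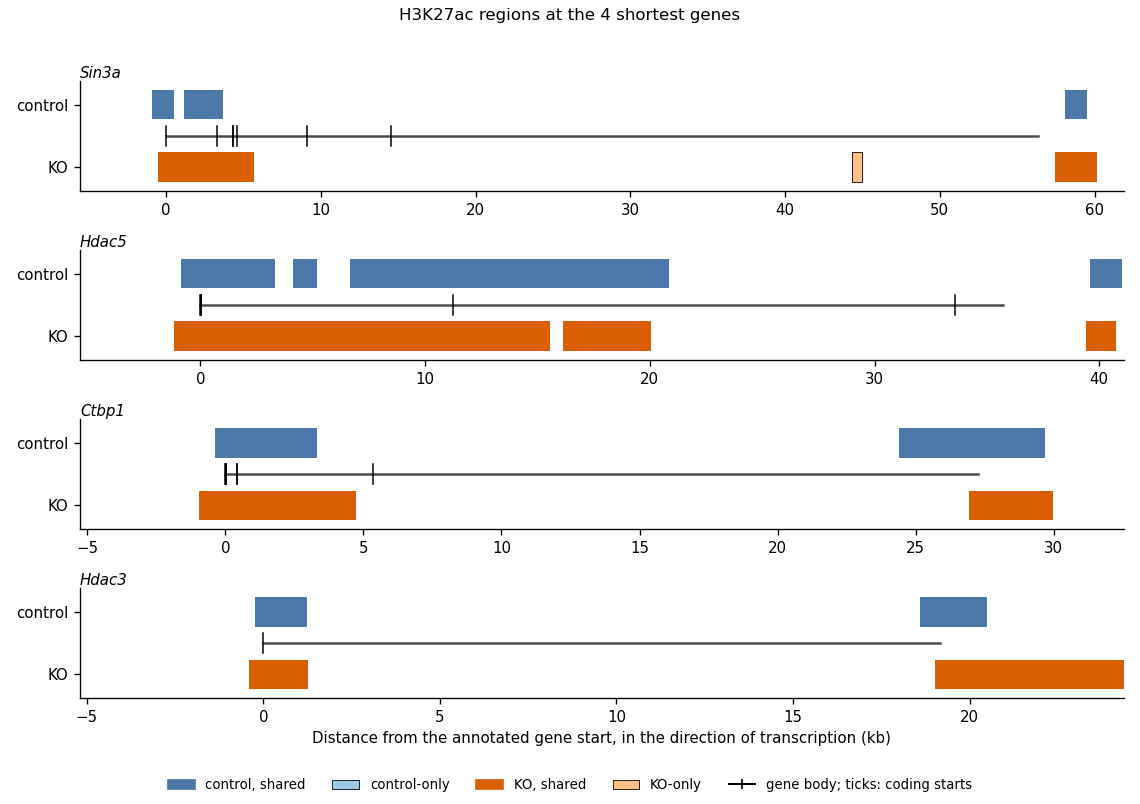
Positions of H3K27ac regions at the 4 shortest genes by distance from the annotated gene start (kb, horizontal axis), with control regions above and KO regions below the gene body and ticks at coding start positions. Pale outlined boxes are regions found in 1 genotype only, and regions that run past the plotted window are cut at its edge. At *Sin3a*, 1 KO region overlaps both control regions at the 5′ end, and at *Hdac3* the KO region at the 3′ end is the longer one.

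*Hdac4* (ENSMUSG00000026313, chromosome 1, 91928779 to 92195699, minus strand) encodes a class IIa deacetylase that moves between nucleus and cytoplasm in response to kinase signals. It had 24 control and 22 KO regions. Covered length was 95202 bp in control and 109329 bp in RIP140-null CMs, a log2 ratio of 0.20. The difference lay at the ends of the gene. At the 3′ end, the 44.0 kb up to the widest region-free stretch (45.6 kb, free in both lists) held 1999 bp in control and 9409 bp in RIP140-null CMs, a log2 ratio of 2.23. This was 7.41 kb of the 14.1 kb by which the KO length exceeded the control length. All 3 loci found there in both lists were wider in RIP140-null CMs. Their control and KO lengths were 741 and 2171 bp downstream of the gene, 685 and 1621 bp at its 3′ border, and 573 and 3686 bp inside it. The last of these was the largest ratio of any of the 64 loci (6.43-fold). Between them lay a KO-only region of 1022 bp in exon 27, and a second KO-only region of 909 bp lay in intron 16. The control regions of these 3 loci were near the narrowest control region at any gene examined here (503 bp). Each region of the 3 loci, in either list, and both KO-only regions had 2 merged peak calls, the lowest number possible. Keeping only regions with 3 or more calls leaves all of these out, and the log2 ratio of *Hdac4* was then 0.08. With regions at least 1000 bp wide it was 0.22.

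Over the coding starts of *Hdac4*, whose promoter is printed above, the locus measured 5600 bp in control and 10581 bp in RIP140-null CMs. The additional length lay downstream of the starts. Between the ends, 2 broad stretches differed little. The stretch of 46.7 kb from chr1:92013441-92060123 had 31754 and 34177 bp covered, and that of 77.5 kb from chr1:92070511-92148034 had 52363 and 51384 bp. Within the second stretch, 1 locus was over 1.5-fold wider (1725 and 5852 bp), 2 were narrower (4453 and 2469 bp, and 5592 and 3608 bp), and both control-only regions lay there, in intron 2. The widest KO region of any of the 9 genes also lay there. It measured 25312 bp and overlapped 2 control regions, and 0.404% of all KO regions were at least as wide. Regions just beyond the 5 kb limit at the 3′ end, 5460 bp (control) and 5439 bp (KO) from the gene, measured 3253 and 6702 bp.

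*Hdac5* (ENSMUSG00000008855, chromosome 11, 102194432 to 102230166, minus strand), the class IIa partner gene, had a single acetylated stretch of 22034 bp from its start into the gene, of which 88.3% was covered in control and 93.9% in RIP140-null CMs. This stretch held 5 of its 6 coding start positions. In control CMs it consisted of regions of 4184, 1078 and 14184 bp, and in RIP140-null CMs of regions of 16737 and 3959 bp. The gaps lay at different positions, so that the KO region over the start overlapped all 3 control regions, while the covered lengths differed by 1.06-fold. All regions were shared under the 1 bp rule, and *Hdac5* had the largest part of its covered bases in common (82.4% of the bases covered in either list). A region 3847 bp (control) and 3657 bp (KO) beyond its 3′ end was the farthest inside the limit at any gene and overlapped *G6pc3*.

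*Hdac9* (ENSMUSG00000004698, chromosome 12, 34047580 to 34917095, minus strand), whose product is also known for repressing MEF2, fell into 3 parts. The 324.9 kb at its 3′ end held no region in either list. The next 155.9 kb, which ended at the start used by 4 of its 8 coding transcripts (34528304), was 50.9% covered in control and 52.4% in RIP140-null CMs. The 388.8 kb upstream of that start, which only longer transcripts include, was 12.8% and 13.2% covered. The densest stretch, chr12:34430392-34532021, measured 101.6 kb and was 79.2% and 80.7% covered, with a log2 ratio of 0.03. Its widest regions were 20106 bp in control and 20915 bp in RIP140-null CMs. The internal promoter printed above lay in it. By contrast, the promoter at the far upstream start of the gene (34917095) was covered in neither list and holds 0 CpG sites.

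Within the dense stretch of *Hdac9*, all 6 loci held by both lists lay within 1.5-fold, with ratios from -0.12 to 0.52. The part of the gene upstream of the main start held most of the genotype-only regions, 11 of 15 control-only and 6 of 8 KO-only. It also held most regions of any status, 24 of 38 in the control and 17 of 28 in the KO list. The KO-only regions measured from 628 to 5787 bp and the control-only regions from 503 to 4500 bp. The widest KO-only region of any of the 9 genes, 5787 bp at chr12:34768113-34773899, lay 5572 bp from the nearest control region. The widest control-only region, 4500 bp at chr12:34430392-34434891, lay 2974 bp from the nearest KO region. At 2 shared loci upstream of the dense stretch, control regions of 2326 and 1901 bp stood against KO regions of 631 and 518 bp, each a log2 ratio of -1.88. Both KO regions had 2 merged peak calls, and the second was the narrowest KO region of any of the 9 genes. In total *Hdac9* had 129093 and 133170 bp covered, a log2 ratio of 0.04. Its control-only regions summed to 19278 bp and its KO-only regions to 14575 bp.

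**Figure D4:**
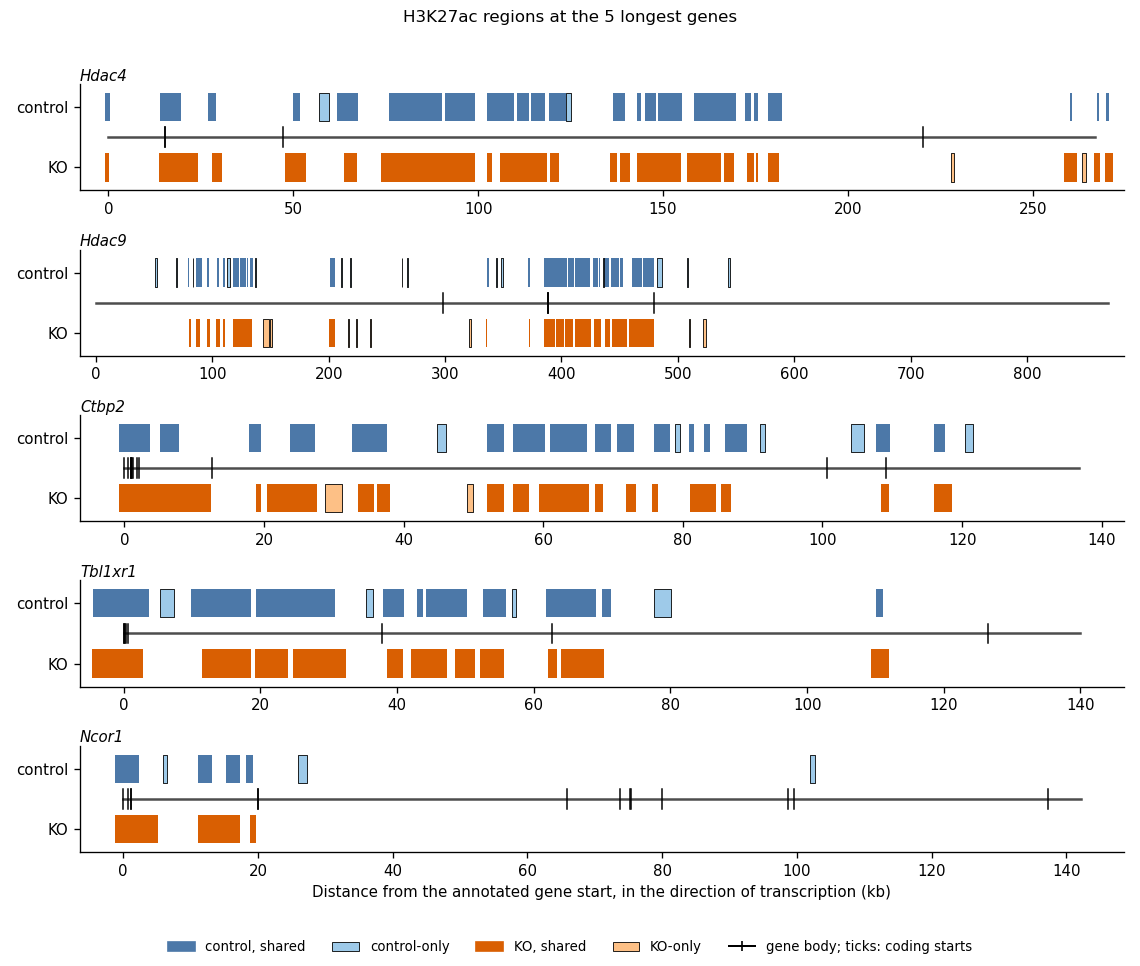
Positions of H3K27ac regions at the 5 longest genes by distance from the annotated gene start (kb, horizontal axis, 1 scale per gene), with control regions above and KO regions below the gene body and ticks at coding start positions. Pale outlined boxes are regions found in 1 genotype only. The broad stretches of *Hdac4* and *Hdac9* appear in both genotypes, and the KO regions at the 3′ end of *Hdac4* (right) are wider than the control regions.

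*Ctbp1* (ENSMUSG00000037373, chromosome 5, 33247723 to 33274994, minus strand) and *Ctbp2* encode NAD(H)-binding corepressors that RIP140 contacts directly. *Ctbp1* had 2 regions in each list and 0 genotype-only regions. At its start, the control region measured 3706 bp and the KO region 5702 bp (log2 ratio 0.62), and the region at its 3′ end measured 5286 and 3045 bp (-0.80). These nearly cancelled, and covered length was 8992 and 8747 bp.

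*Ctbp2* (ENSMUSG00000030970, chromosome 7, 132987563 to 133124354, minus strand) had 21 control and 17 KO regions. At its 5′ end, control regions of 4357 and 2789 bp stood against 1 KO region of 13164 bp. Inside the gene the pattern was mixed. Of its 13 loci, 4 were over 1.5-fold wider and 6 were over 1.5-fold narrower, and the median log2 ratio was -0.33, while the ratio of total length was 0.05 (50663 and 52427 bp). The median and the total thus differ in sign. The narrower loci included the one over an internal coding start (133015248), with 2029 bp in control and 1093 bp in RIP140-null CMs. The gene had 5 control-only regions, from 628 to 1788 bp, and 2 KO-only regions, of 753 and 2442 bp. All 21 control and all 17 KO regions of the gene, those at its 5′ end included, also overlap the GENCODE model of *Fgfr2*. The lists cannot divide them between the genes.

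*Sin3a* (ENSMUSG00000042557, chromosome 9, 57072040 to 57128366, plus strand) had the only starts that lay in 1 list alone. At its 5′ end, the control list had regions of 1403 and 2538 bp, and the KO list had 1 region of 6236 bp that overlapped both, covered the gap between them and ended farther downstream. Its 3 coding starts at 57076376, 57076399 and 57076628 lay in the KO region and 659 to 911 bp beyond the control region. The second promoter printed above is the one upstream of the first of these. The first 2 coding starts (57072040 and 57075338) lay in regions of both lists. A KO-only region of 637 bp lay in intron 16, and a locus beyond the 3′ end, which overlaps *Man2c1*, measured 1396 and 2727 bp. Covered length in the window was 5337 and 9600 bp, a log2 ratio of 0.85. The KO-only region was 13151 bp from the nearest control region and below 1000 bp in width.

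Motif matches were then counted, because class IIa HDACs act through MEF2 and RIP140 is known to act on estrogen-related receptors (ERRs). The ERR consensus TCAAGGTCA was searched on both strands over the whole of each region. It occurred 10 times at the 9 genes, with 4 matches in regions of both lists, 5 in KO regions alone and 1 in a control region alone. In KO regions the density was 21.9 matches per Mb at these genes and 33.6 over all regions, and in control regions 13.1 and 32.7. Of KO regions, 8.79% held a match at these genes and 9.85% in the whole list, and of control regions 4.35% and 8.18%. The counts are small, and the densities at these genes lay below those of the whole lists. The matches inside genotype-only regions and the others in KO regions alone are shown on the plus strand with 10 flanking bases, with the match in capitals.
Hdac9, KO-only region, chr12:34770580-34770608: aattaggagtTCAAGGTCAgcatcagcta
Sin3a, KO-only region, chr9:57116552-57116580: tgcaggagctTGACCTTGAggcttggtct
Ctbp2, control-only region, chr7:133078911-133078939: atttcctcttTGACCTTGAataaacccaa
Ctbp2, KO part of a shared locus, chr7:133006095-133006123: ggcctggctgTCAAGGTCAtgggttgggt
Ctbp2, KO part of a shared locus, chr7:133006844-133006872: ctgaattcttTCAAGGTCAtagagagggg
Tbl1xr1, KO part of a shared locus, chr3:22188569-22188597: attgagtatcTGACCTTGActtcatgggt
The first of these lies in the widest KO-only region of *Hdac9*. The last lies in the intron 4 locus of *Tbl1xr1* that was wider in RIP140-null CMs. Each is a match to letters and not a shown binding site. The *Ctbp2* match at 133006854 to 133006862 ends just before the control region that begins at 133006866. Its place in the KO list alone therefore rests on the exact edge of that region.

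The MEF2 consensus occurred 24 times, 16 of them at *Hdac9*. Of the 24, 11 lay in regions of both lists, 9 in control regions alone and 4 in KO regions alone. In control regions the density was 52.3 matches per Mb at these genes and 37.9 over all regions, and in KO regions 36.4 and 36.1. *Hdac9* held 14 of the 20 matches in control regions and 9 of the 15 in KO regions. The densities at these genes thus rest mostly on 1 gene, and the part of base composition in them was not tested. Of control regions, 15.7% held a match at these genes and 9.61% in the whole list, and of KO regions 13.2% and 11%. At *Hdac9*, 7 of the 16 matches lay in control regions alone, including both matches of its widest control-only region. Another of the 7, at chr12:34837433-34837442, begins on the last base of a KO region. Its place in the control list alone therefore rests on the exact edge of that region. At *Hdac5*, matches lay 17 bp upstream of the annotated start, within the promoter printed above, and 55 bp upstream of an internal coding start, and 1 match at *Hdac9* lay 458 bp downstream of its main start. All 3 were in regions of both lists. Of all promoters in the table, 0.508% held a MEF2 match and 0.387% an ERR match.
Hdac5, at the start, chr11:102230173-102230202: cgaccccgagCTAAAAATAGgctcagaccc
Hdac5, at the internal start, chr11:102218973-102219002: agggccctgtCTATAAATAGgtggagcatg
Hdac9, near the main start, chr12:34527836-34527865: gaaggtagatCTATAAATAGttccgcttgt
Hdac9, widest control-only region, chr12:34433593-34433622: gtctgtcacaCTATAAATAGactactgaag
These are also on the plus strand, with the match in capitals and 10 bases on each side.

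The other genes of these pathways give the setting of the 9. They were 46 genes of the NCoR, SIN3, CoREST and NuRD complexes, the remaining HDACs, the ligand-dependent corepressors and the opposing acetyltransferases and coactivators, and all 46 had regions. Of these, 26 had a KO-only region and 22 a control-only region, against 35.2% and 39.2% of all protein-coding genes with any region. Covered length was over 1.5-fold higher in RIP140-null CMs for 11 genes and over 1.5-fold lower for 2, against 16.3% and 8.6% of all genes, and the median log2 ratio was 0.20, against 0.08 over all genes. Of the 10 other SIN3 genes, 4 were over 1.5-fold higher (*Sap18*, *Sap30*, *Sin3b* and *Suds3*) and 1 was lower, with a median of 0.45. Of the 9 genes listed under NuRD, 4 were higher and 0 lower, with a median of 0.42. NuRD subunits shared with other complexes were counted elsewhere. They were *Rbbp4* and *Rbbp7* under SIN3 (log2 ratios -0.80 and -0.01) and *Hdac1* and *Hdac2* under class I HDACs (0.69 and 0.09). The genes with at least 2 genotype-only regions of 1 genotype alone were *Gatad2a* (5 KO-only, 27498 and 47537 bp in control and RIP140-null CMs), *Ing1*, *Mbd2* and *Sap130* (2 KO-only each), *Rcor1* (3 control-only, 8911 and 4732 bp) and *Lcorl* (2 control-only). *Gatad2a* encodes a NuRD subunit, and *Rcor1* encodes the scaffold of the CoREST complex.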

How the data were processed

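H3K27ac CUT&RUN was performed on CMs of csNrip1-/- mice and littermate controls, with 3 H3K27ac and 3 IgG replicates per genotype. Per the paper's methods and the submitters' processing notes, reads were mapped by the authors with Bowtie2 2.4.2 to the GRCm38 assembly and freed of duplicates with SAMtools, and they called regions per replicate against IgG with HOMER 4.11.1 and merged those found in at least 2 of 3 replicates. The authors deposited 1 list per genotype that gives for each region its chromosome, its limits in bp, its name and a score. The deposited score was the same for every region and was not used. Only chromosomes 1 to 19, X and Y were used here (21 control and 14 KO regions lay elsewhere). Starts were read as 0-based and are printed 1-based.

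Regions of both lists overlapping a gene body extended by 5 kb were taken (55413 GENCODE M21 genes). A region was shared if it overlapped the other list by at least 1 bp. Overlapping or touching regions were joined into loci, and covered lengths were compared with a limit of 1.5-fold. Exons and introns were numbered in the transcript with the longest coding sequence. Promoters ran from 1000 bp upstream to 100 bp downstream of a start. Stretches joined regions up to 10 kb apart. With no value per replicate, no test was run, depth is unknown, and 95% Wilson intervals cover counting error only. The methods describe the replicates as biological.

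The 9 genes, the pathway and marker lists and the motifs were chosen with earlier results of these data known. All 9 genes are named, as are pathway genes with at least 2 genotype-only regions of 1 genotype, *Nrip1* and overlapping genes. Chosen after their values were seen, the 4 SIN3 genes with higher covered length and the subunits that NuRD shares with other lists are also named. The result for 1 gene is not reported here. Alternatives changed the overlap rule, the regions kept and the gene window. The overlap steps were tested on simulated data. Python 3.11.15, numpy 2.4.6, scipy 1.17.1 and matplotlib 3.10.9 were used.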

Additional observations from a re-analysis of the deposited data

How the results depend on the processing

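The median log2 ratio over loci ranged from 0.12 to 0.16 over the 7 alternatives that give it, and the log2 ratio of total covered length from 0.04 to 0.25 over 6. Of 53 recomputed log2 ratios of single genes, 49 stayed within 1.5-fold of the reported value, 3 moved by more and 1 reversed, which was that of *Hdac3* (-0.37 within the gene body alone). Of 162 recomputed counts of genotype-only regions of single genes, 45 moved. The counts of genotype-only regions depended on the definition. With 50% of a region required to overlap, KO-only regions numbered 23, and with a reciprocal 50% they numbered 51 and control-only regions 75. Regions at least 1000 bp wide left 7 KO-only and 17 control-only, and assignment to the nearest annotated start left 8 and 19. With the control list cut to its widest regions, equal in number to the KO list, control-only regions numbered 19 and the KO-only share was 47.2%. Control-only regions are narrower than shared ones, so this cut removes them first and is not a neutral correction for number. Among regions with 3 or more subpeaks, 0 were KO-only and 2 control-only, the KO-only share was 0%, and 10 loci were wider and 3 narrower. Allowing a gap of up to 1000 bp left 6 narrower loci. Shares in the regions of minimum width and of 3 or more subpeaks used the shared status of the full lists. No paired analysis was possible because each list merges the replicates and its columns carry no replicate, and for the same reason no replicate could be left out.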
